A study of Arabidopsis thaliana with 6 samples.

Results

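Among the stress-related transcription factor genes of Arabidopsis thaliana whose symbols begin with WRKY, NAC, ANAC, NTL, ERF, DREB, RAP2, CBF or ZAT, 7 could be followed in seedlings given estradiol or a mock treatment. They were taken from the symbol of each probe set that the platform annotation assigns to a single gene, ignoring case and a leading AT, and they make up 7 of 13356 named genes. 6 are WRKY genes (WRKY6, WRKY20, WRKY22, WRKY42, WRKY47 and WRKY53) and 1 is a NAC gene (NAC014). No ERF, DREB, RAP2, CBF or ZAT symbol had a probe set of its own, so the ethylene-response and cold-response factor families were not analysed here under those names. By symbol the RefSeq table of the TAIR10.1 assembly lists 67 WRKY and 83 NAC genes, and the members are therefore a small sample of each family. The annotation assigns no gene to 8730 probe sets, and some of the other family members may lie among those. STZ, also known as ZAT10, and ZAP1, also known as WRKY1, matched only through an older name, and their values are given apart.

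Seedlings of the Col-0 ecotype were stable transgenic plants of the T3 generation, aged 14 days and grown in 16 h light and 8 h dark. All of them carry the chimeric factor XVE, which is expressed constitutively, enters the nucleus when estradiol is bound and then switches on a transgene behind a LexA promoter. That transgene is RPX∆C, which by its name is RPX, a NAC transcription factor, without a C-terminal part. The 3 mock samples received no estradiol and the 3 estradiol samples 10 µM for 2 h. The mock is described as ethanol in one field and as inducer-free medium in another. No seedlings without the transgene are among the samples, so the response to estradiol and the response to RPX∆C cannot be told apart. RPX, taken here as ANAC078, and its relative ANAC053 have 0 probe sets naming them, so the induced NAC gene itself could not be followed by name. Whether one of the 8730 probe sets without a listed gene measures it is not known.

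WRKY factors are plant proteins that bind W-box elements in promoters through a domain named after its conserved WRKY residues. Many of them are switched on within a short time by pathogens, wounding or other stress, and several act in leaf senescence and nutrient supply. NAC factors form another large plant family with a conserved N-terminal DNA-binding domain. Some NAC proteins, NAC014 among them, carry a membrane anchor and must be released before they can act in the nucleus.

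Each array gave a single deposited intensity per probe set, called signal here, and the authors had scaled the arrays to a common level. Median signal lay between 35.7 and 38.7 on the 6 arrays. The 3'/5' signal ratio of the actin control, a measure of RNA integrity, was 12.8 in mock replicate 3 and 15.9 in estradiol replicate 3, against 6.87 to 10.8 on the other arrays. The same ratio for GAPDH was 1.04 and 1.12 in estradiol replicates 1 and 2, against 1.65 to 2.32 on the other arrays. The 25S rRNA control gave 302 and 286 in mock replicates 1 and 2, against 918 to 1534 elsewhere. Of the organ markers, 3 of 8 shoot and 3 of 8 root genes were measured. The leaf genes RCA and LHCB4.2 lay between 3720 and 5879 and between 2163 and 2699, and LHCB4.3 between 74.9 and 113. The root gene PYK10 lay between 1634 and 2606, whereas the root hair genes EXPA7 and EXPA18 were dim, at 24.9 to 49.7 and 17.8 to 29.6. The number of arrays limits the precision of every value below.

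No difference between estradiol and mock was detected for any of the 7 genes. With limma p-values adjusted by Benjamini-Hochberg over all 22746 probe sets tested and a threshold of 0.05, 0 of 7 members were called in either direction. The share called among all probe sets was 0.114%, all of them higher after estradiol. At an unadjusted p under 0.05 in limma 0 of 7 passed as well, against 8.54% of all probe sets. The signals of mock and estradiol overlapped in all 7 genes. Over all probe sets the groups did not overlap in 13.5%. On the log2(intensity + 16) scale used for the test, 2 members had a difference above 0 and 5 below 0, and 42.9% of all probe sets had one above 0. The median difference of the 6 WRKY genes was -0.09, and that of all probe sets tested was -0.03 with quartiles at -0.16 and 0.09.

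WRKY6, WRKY42 and WRKY47 belong to the same branch of the WRKY family, group IIb. WRKY6 (AT1G62300) acts in senescence, defence and the response to low phosphate, where it represses the phosphate exporter gene PHO1. Its signal was 355, 308 and 173 in mock replicates 1, 2 and 3, and 354, 402 and 157 in the corresponding estradiol samples. Replicate 3 was the lowest in each group, and the groups overlapped almost entirely. The means were 279 ± 94.8 in mock and 304 ± 130 with estradiol (SD, n = 3 each). The log2 difference was 0.08 ± 0.39 SE, with a 95% confidence interval from -0.85 to 1.00 (limma adjusted p = 0.977).

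WRKY47 (AT4G01720) is known from the response to boron and aluminium. It gave a signal of 130.3, 139.6 and 87.7 in mock and 119, 151 and 47.4 with estradiol. Replicate 3 was again the lowest in each group, and the estradiol values spanned the whole mock range. The group means were 119 ± 27.7 and 106 ± 52.9 (SD, n = 3 each), with a log2 difference of -0.24 ± 0.36 SE and a 95% interval from -1.10 to 0.62 (limma adjusted p = 0.892).

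WRKY42 (AT4G04450), which acts with WRKY6 on PHO1 and also on phosphate uptake, was dim on every array. Its signal was 12.4, 2.13 and 7.32 in mock and 0.878, 7.75 and 6.55 with estradiol. All 6 values lay under the pseudocount of 16, so the log2 difference of -0.14 ± 0.20 SE (limma adjusted p = 0.891) is compressed, and with no detection calls its distance from background is unknown. The other 6 members were above 16 on every array. The signal of one member is not read as more or less transcript than that of another, since the brightness of a probe set depends on its probes as well as on the transcript.

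WRKY22 and WRKY53 are factors of early stress signalling. WRKY22 (AT4G01250) acts downstream of the MAP kinase cascade that responds to bacterial flagellin. Its signal was 414, 351 and 210.4 in mock and 329, 524 and 162 with estradiol. The highest and the lowest of the 6 values were both estradiol samples. The means of 325 ± 104 and 338 ± 181 (SD, n = 3 each) gave a log2 difference of -0.04 ± 0.42 SE, with a 95% interval from -1.04 to 0.97 (limma adjusted p = 0.992). The mean of the linear signal was higher with estradiol and that of the log2 values lower, so no direction is drawn.

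WRKY53 (AT4G23810) is a regulator of leaf senescence. It gave 51.1, 34.1 and 42.3 in mock and 37.3, 45.8 and 67.6 with estradiol. Estradiol replicate 3 was the highest of the 6, and the other 5 values were mixed between the groups. The means were 42.5 ± 8.51 and 50.2 ± 15.6 (SD, n = 3 each), with a log2 difference of 0.16 ± 0.19 SE and a 95% interval from -0.30 to 0.62 (limma adjusted p = 0.854). Without estradiol replicate 3 the difference was -0.02.

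WRKY20 (AT4G26640), a group I WRKY gene, had the smallest p of the 7 genes. Its signal was 107, 109 and 98.4 in mock and 101, 89.1 and 80.5 with estradiol. A pair of estradiol values lay below all mock values and the remaining one lay among them. The mean went from 105 ± 5.57 to 90.3 ± 10.4 (SD, n = 3 each), with a log2 difference of -0.19 ± 0.11 SE and a 95% interval from -0.45 to 0.07 (limma adjusted p = 0.684). Its p ranked 4471 among the 22746 probe sets.

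NAC014 (AT1G33060, also named ANAC014), the membrane-anchored NAC gene, had nearly equal group means. It gave 51.8, 45.2 and 44.1 in mock and 38.5, 44.0 and 56.6 with estradiol. The lowest and the highest values were both estradiol samples. The means were 47.0 ± 4.14 and 46.4 ± 9.24 (SD, n = 3 each), with a log2 difference of -0.02 ± 0.13 SE and a 95% interval from -0.34 to 0.29 (limma adjusted p = 0.981).

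**Figure D1:**
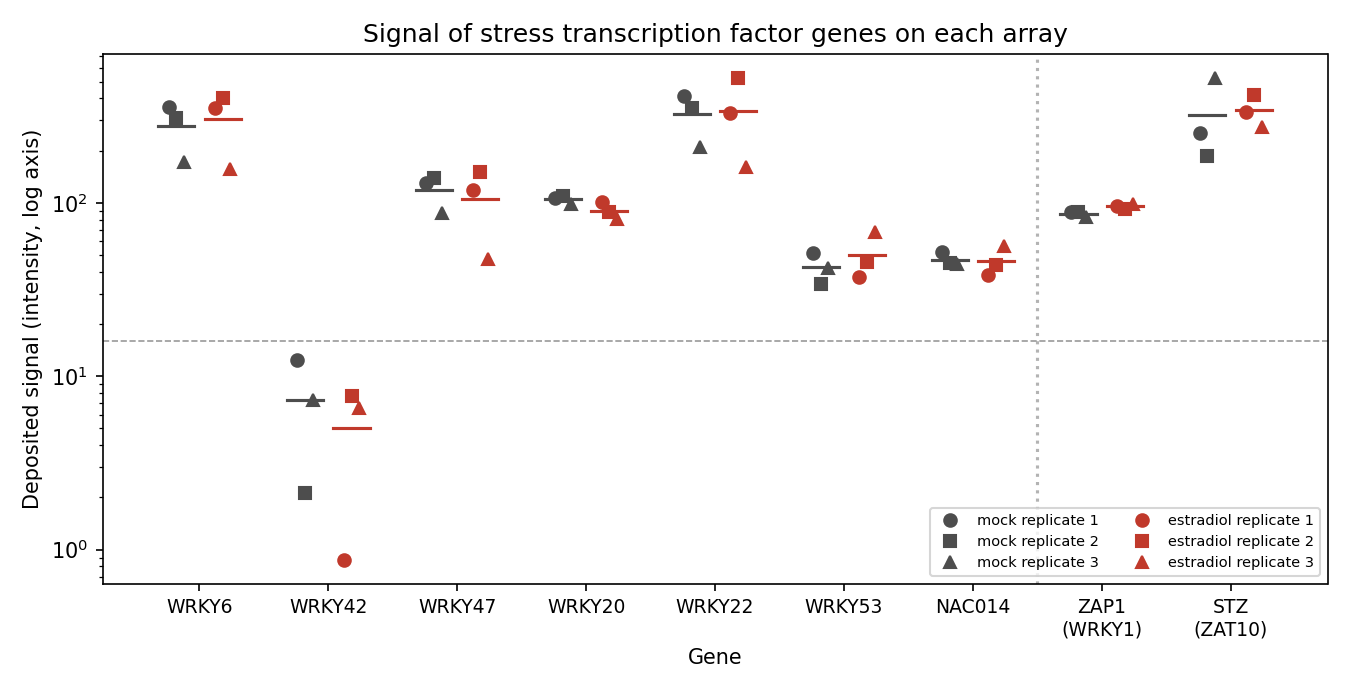
Deposited signal (log axis) of the 7 member genes and, right of the dotted line, of ZAP1 and STZ, on each of the 3 mock (grey) and 3 estradiol (red) arrays; the marker shape gives the replicate, short bars give group means and the dashed line marks the pseudocount of 16. Grey and red points overlap in all 7 members, and the triangles of replicate 3 lie lowest in both groups for WRKY6, WRKY47, WRKY20 and WRKY22.

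The width of the intervals separates what these arrays can say about each gene. For WRKY20, WRKY53 and NAC014 the 95% interval of the difference stayed within 1 unit of 0 on the log2(intensity + 16) scale. The interval of WRKY42 did so too, but all its signals lie under 16, so it does not limit the change in signal. With a pseudocount of 1 the difference of WRKY42 was -0.498. For WRKY6, WRKY22 and WRKY47 the interval reached past 1 log2 unit on at least one side, so a difference of that size lies within it at this number of arrays. The fit used group alone, so differences between replicates that both groups share also widen these intervals. With the replicate number added as a block, the limma adjusted p was 0.894 for WRKY6, 0.979 for WRKY22 and 0.692 for WRKY47. Intervals from the block fit are not given. These 3 genes had the widest spread within the estradiol group among the 7, with an SD of the log2 values of 0.69 for WRKY6, 0.81 for WRKY22 and 0.73 for WRKY47.

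**Figure D2:**
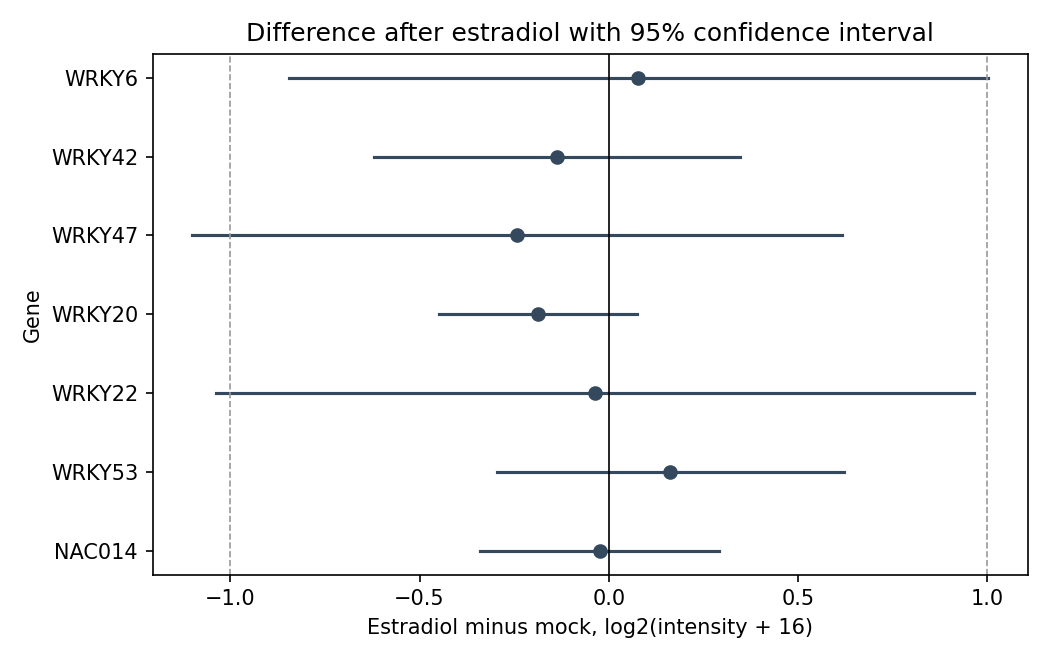
Difference between estradiol and mock in log2(intensity + 16) for each member gene, as the limma estimate (point) with its 95% confidence interval (bar), from 3 arrays per group; dashed lines mark 1 log2 unit. All 7 intervals contain 0, and those of WRKY6, WRKY22 and WRKY47 reach past a dashed line.

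In those 3 WRKY genes the lowest sample was replicate 3 in both groups. Replicate 3 of WRKY22 lay 0.81 log2 units below the mean of replicates 1 and 2 in mock and 1.28 below in estradiol. The gap was 0.88 and 1.19 for WRKY6, and 0.54 and 1.24 for WRKY47. WRKY20 also had its lowest value in replicate 3 of both groups, by 0.11 and 0.20. Replicate 3 was thus lowest in both groups for 4 of 6 WRKY genes, against 16.7% of all probe sets, and by over 0.5 log2 units in both groups for 3 of 6, against 1.14% of all probe sets. This margin was chosen after the values were seen, and these shares are a description with no test. WRKY53, WRKY42 and NAC014 did not follow: replicate 3 with estradiol lay 0.54, 0.17 and 0.34 log2 units above the mean of the other replicates. The mean log2 value of the 6 WRKY genes was 7.05, 6.82 and 6.55 in mock replicates 1, 2 and 3 and 6.79, 7.07 and 6.39 in the estradiol replicates. Both replicate 3 arrays also had the highest actin 3'/5' ratios. The GAPDH ratio was highest in estradiol replicate 3, at 2.32. In mock replicate 3 it was 1.73, between mock replicates 1 and 2 at 1.65 and 2.07. The 25S rRNA signal was also highest on the replicate 3 arrays, at 1534 in mock and 1323 with estradiol, against 286 to 1216 on the other arrays. The part of RNA integrity or of rRNA signal in this pattern was not tested. In whole seedlings, fewer cells of a type and less RNA per cell cannot be told apart. Replicate 3 was lowest in both groups for 0 of 3 shoot and 0 of 3 root markers measured. Whether the make-up of the seedlings differed between replicates was not tested.

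**Figure D3:**
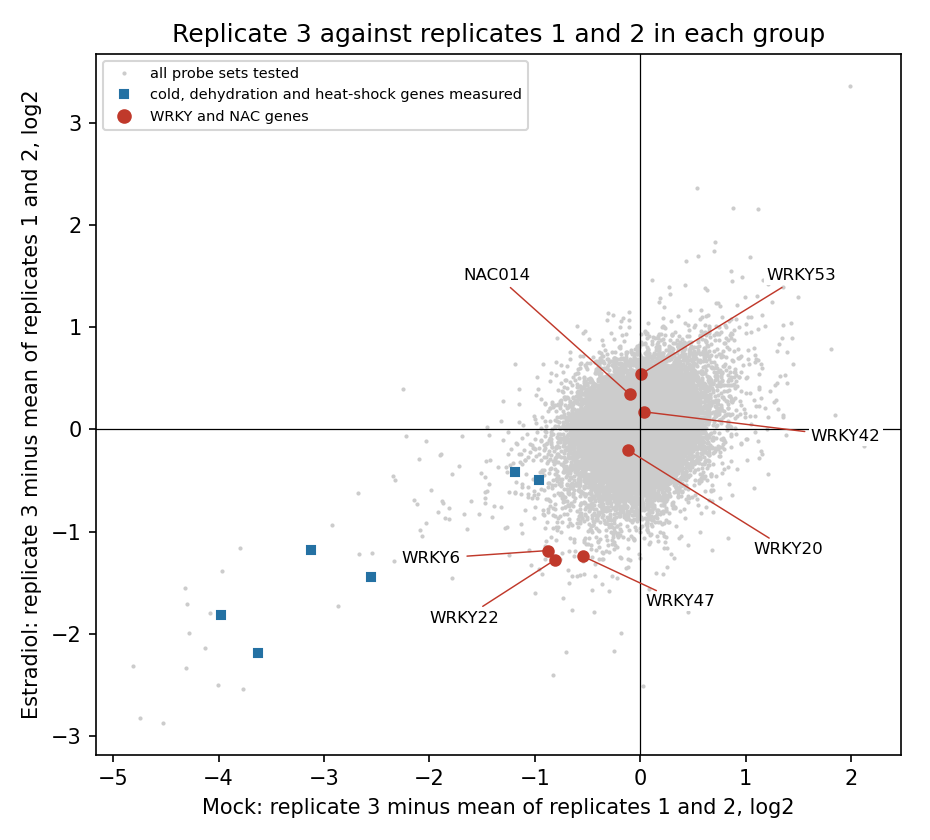
Gap between replicate 3 and the mean of replicates 1 and 2 in log2(intensity + 16), for the mock arrays (x axis) and the estradiol arrays (y axis); grey points are the 22746 probe sets tested, red points the 7 members and blue squares the 6 measured cold, dehydration and heat-shock genes. WRKY6, WRKY22 and WRKY47 lie together at the lower left, with WRKY20, WRKY42, WRKY53 and NAC014 near the centre.

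The 2 genes that match the families only by an older name were not alike. STZ encodes a zinc finger repressor that responds to salt, cold and wounding. Its signal was 252, 185 and 521 in mock and 336, 419 and 274 with estradiol, so the estradiol samples lay inside the mock range. Mock replicate 3, the lowest mock array for WRKY6, WRKY20, WRKY22 and WRKY47, was the highest array for STZ, by 1.21 log2 units over the mean of the other mock replicates. The log2 difference of STZ was 0.20 ± 0.36 SE.

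ZAP1, a group I WRKY gene, varied little. It gave 88.5, 88.5 and 83.2 in mock and 96.4, 92.1 and 98.4 with estradiol. Each estradiol value exceeded every mock value, as was the case for 5.79% of all probe sets, but the means of 86.7 ± 3.05 and 95.6 ± 3.27 (SD, n = 3 each) are close. Its log2 difference was 0.12 ± 0.09 SE.

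The pathways around these factors were followed through lists of known partners and targets. None of the 19 listed defence genes around WRKY factors, such as PR1 and MPK3, had a probe set named for it alone, nor did any of the 10 touch and wound genes or of the 6 genes upstream of CBF. Of 17 ethylene genes 2 were measured, and 0 were called in either direction. EIN3, the central transcription factor of ethylene signalling, gave 497, 468 and 464.5 in mock and 442, 509.7 and 348 with estradiol (log2 difference -0.15 ± 0.15 SE, limma adjusted p = 0.817). Its difference was -0.0044 without estradiol replicate 3 and -0.27 without estradiol replicate 2. PDF1.2, a defensin gene that ERF factors activate, had group means of 33.0 ± 12.6 and 33.4 ± 16.9 (SD, n = 3 each; log2 difference -0.0029, limma adjusted p = 0.999). Both genes had their 3 estradiol values on either side of mock values. Both also had their lowest value in replicate 3 of each group. For PDF1.2 it lay 0.70 log2 units below the mean of the other replicates in mock and 0.54 below in estradiol. The gaps for EIN3 were 0.05 and 0.43.

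Of 12 listed targets of CBF and DREB factors, which protect cells in cold and drought, 4 were measured and 0 were called in either direction. COR15A, a chloroplast protein gene of cold acclimation, gave 296, 544 and 17.9 in mock and 220.1, 138 and 25.7 with estradiol. COR15B, its close relative, gave 177, 302 and 26.0 in mock and 184, 103 and 40.6 with estradiol. In both genes replicate 3 was far below the other replicates of its group. The dehydrin genes LTI30 (log2 difference -0.65 ± 0.31 SE, limma adjusted p = 0.639) and COR47 (-0.66 ± 0.34 SE, limma adjusted p = 0.647) also had their lowest value in replicate 3 of each group. Without mock replicate 3 the differences of LTI30 and COR47 were -0.97 and -1.05, and without mock replicate 1 they were -0.38 and -0.39. LTI30 was -0.0075 with mock replicate 3 as the only mock array. All 4 differences were below 0, with a median of -0.65. In size the median is smaller than the gaps between replicates of COR15A, where replicate 3 lay 3.63 log2 units below the others in mock and 2.19 below in estradiol. The gaps were 2.56 and 1.45 for COR15B, 0.96 and 0.49 for LTI30, and 1.19 and 0.42 for COR47. For LTI30 and COR47 the gap in estradiol was thus smaller than the median in size.

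Of 7 listed heat-shock genes 2 were measured and 0 were called in either direction. FKBP65, a heat-induced prolyl isomerase gene, had a log2 difference of -1.19 ± 0.87 SE (limma adjusted p = 0.746), and HSP22, a small heat-shock protein gene, -1.36 ± 1.12 SE (limma adjusted p = 0.779). Replicate 3 was the lowest in both groups for each, by 3.13 and 3.98 log2 units in mock and by 1.18 and 1.82 in estradiol. With mock replicate 3 as the only mock array the differences were 0.89 and 1.29, and that of COR47 was 0.13. That comparison is not balanced by replicate, since all estradiol replicates were kept. Without replicate 3 of both groups FKBP65 was -1.84, HSP22 -2.08 and COR47 -0.91. For each of COR47, FKBP65 and HSP22 the sign was reversed in 1 of 17 alternatives, the one with mock replicate 3 as the only mock array. Mock replicate 3 was the lowest mock array for each, so keeping it alone raises the difference by construction. No conclusion on direction is drawn from that alternative.

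Of the 7 members 5 carry a locus tag on chromosome 4, where 14.6% of the probe sets with a single gene and a locus tag lie. The members are only those family genes that the annotation names, so this is not a share of the whole families.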

How the data were processed

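The authors deposited a linear intensity for each probe set on each array. GCOS and affy are listed per the submitters' processing notes, with neither version nor role; for the summary and scaling steps, the method is not stated in those sources. The arrays shared a 2% trimmed mean of 100.01, and 31.1% to 36.0% of probe sets per array lay under 16. Of 22810 probe sets, 64 controls were left out. Names came from the platform annotation, updated through Entrez IDs to RefSeq (TAIR10.1): 13513 probe sets have 1 gene, 503 several (1 of these with a DREB symbol, not named) and 8730 none. Each member had a single probe set. The build behind the annotation is not named, so no coordinates are given.

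limma 3.58.1 (R 4.3.3; linear model and empirical Bayes, two-sided, group alone) was run on log2(intensity + 16), which understates changes of dim probe sets, and p-values were adjusted over all 22746 probe sets. An exact permutation test of 3 against 3 cannot go below p = 0.1. The labels call the samples biological replicates. Their numbers were not used as pairs in the main fit. Deviations from the group means correlated at 0.091, 0.11 and 0.33 for equal numbers 1, 2 and 3, the first not over 0.1. Mock replicate 1 with estradiol replicate 2 gave 0.17, and mock replicate 2 with estradiol replicate 1 gave 0.13. Mock replicate 3 gave -0.19 and -0.25 with estradiol replicates 1 and 2. Estradiol replicate 3 gave -0.20 and -0.18 with mock replicates 1 and 2. Both replicate 3 arrays thus shared deviations, whereas among replicates 1 and 2 equal numbers correlated no more closely than unequal ones. Deviations within a group cancel out by construction, so these correlations are not independent of each other. The negative values with replicate 3 follow in part from the 0.33 and are not separate evidence. The fit was tested on simulated data with independent noise and with changes planted only in probe sets above the median signal. That test does not cover deviations shared by replicates or dim probe sets such as WRKY42.

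The members and lists were chosen with earlier results of these data known. By rule, a p was printed for the 6 members with the smallest p, the 2 brightest per family, the 4 with the largest SD in mock, which together covered all 7 members, and up to 2 genes per pathway list. STZ, ZAP1, COR15A, COR15B and the organ markers are given as values. Alternatives changed scaling, filter, pseudocount, variance model, array weights, block, membership and arrays. Python 3.11.15 with matplotlib 3.10.9 drew the figures.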

Additional observations from a re-analysis of the deposited data

How the results depend on the processing

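No member gene was called under any of the 19 alternatives run for that count, of which the inclusion of STZ and ZAP1 was chosen after seeing the data; the lowest adjusted p of a member was 0.540. Over all probe sets, 26 were called by limma, and the number was 43 after median-centring, 97 and 90 with filters at the 25th and 50th percentile of mean signal, 0 with a pseudocount of 1, 11 with a pseudocount of 64, 51 with a trended robust variance, 92 with array weights and 17 with the replicate number as a block; it ranged from 0 to 57 without single arrays, and was 0 without replicate 3 of both groups and 0 without mock replicates 1 and 2. The replicate block called 0 members. The median of the WRKY genes ranged from -0.22 to 0.14 and the value of NAC014 from -0.17 to 0.07 over their alternatives. Differences this near to 0 changed sign: WRKY22 was 0.098 with array weights, 0.12 without replicate 3 of both groups and 0.505 without mock replicates 1 and 2, and ranged from -0.41 to 0.39 without single arrays. NAC014 was 0.00527 after median-centring and 0.042 without mock replicates 1 and 2, and ranged from -0.14 to 0.0677 without single arrays. WRKY53 was -0.015 without replicate 3 of both groups and ranged from -0.0179 to 0.31 without single arrays; WRKY47 was 0.119 without mock replicates 1 and 2 and ranged from -0.52 to 0.17. WRKY6 ranged from -0.21 to 0.47 without single arrays and was 0.66 without mock replicates 1 and 2. WRKY42 ranged from -0.31 to 0.0190 without single arrays and was -0.498 with a pseudocount of 1, and WRKY20 stayed below 0 under its 17 alternatives. PDF1.2 was 0.00594 after quantile normalization, 0.026 after median-centring, 0.00158 with a pseudocount of 64 and 0.46 without mock replicates 1 and 2, with a range from -0.27 to 0.18 without single arrays. Without mock replicates 1 and 2, COR47 was 0.13, FKBP65 0.89 and HSP22 1.29, but without replicate 3 of both groups they were -0.91, -1.84 and -2.08. Without single arrays, LTI30 ranged from -0.97 to -0.38, COR47 from -1.05 to -0.39, EIN3 from -0.27 to -0.0044, FKBP65 from -2.23 to -0.64 and HSP22 from -2.69 to -0.57. The cause of these changes was not tested. With mock replicate 3 as the only mock array, that array is assumed to vary like the estradiol arrays. Averaging probe sets per gene gave nothing to compare, since each member has 1, and medians of the ERF and ZAT families could not be given, with 0 members each. The filter at the 50th percentile left out PDF1.2, and both filters left out WRKY42. Without detection calls, whether dim probe sets such as WRKY42 lie above background stays unknown.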
